A study of Mus musculus with 30 samples.

Results

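Ablation of the endogenous neural precursor cells (eNPCs) of the subventricular zone (SVZ) was read here as a comparison within animals: how far each gene's response in the SVZ departed from its response in the striatum of the same mouse. All 15 mice of the series had 1 library of each tissue, which used all 30 libraries. For every gene the log2 expression in the striatum was subtracted from that in the SVZ of the same mouse, and these differences were compared between 5 ablated and 10 control mice. Of 53278 gene symbols in the SVZ table and 50508 in the striatum table, 47918 were in both, and the comparison rests on the 14197 symbols with more than 1 CPM (counts scaled to a common library size) in at least 3 libraries of each tissue.

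The mice are C57Bl/6, and age and sex of the sequenced animals are not given in the labels. The ablated group held 5 NestinTK+GCV+ mice, which carry a thymidine kinase transgene driven by the second intron of the rat Nestin gene and were given ganciclovir (GCV), a drug that thymidine kinase turns into a poison of dividing cells. The 10 controls were 3 NestinTK-GCV+ mice, wild-type littermates given GCV, 3 NestinTK-PBS+ mice, wild-type littermates given PBS, and 4 NestinTK+PBS+ mice, which carry the transgene and were given PBS. Letters name the mice in order of their labelled numbers within these groups: A to E were ablated, F to H were NestinTK-GCV+, I to K NestinTK-PBS+ and L to O NestinTK+PBS+. The driver is active in Nestin-expressing cells in general, so the loss is not restricted by design to a single precursor stage. SVZ libraries were made with a low-input kit that copies whole transcripts and does not mark strand, and striatum libraries with a kit that reads the 3′ end. Kit and tissue therefore cannot be told apart in the level of a gene, and levels are not compared between tissues below. A kit effect that is constant for a gene cancels in the contrast of ablated with control mice.

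In the adult SVZ, stem cells give rise to transit-amplifying cells and these to neuroblasts, which migrate towards the olfactory bulb beneath a ciliated ependymal layer that lines the ventricle. The striatum next to it is built mainly of GABAergic medium spiny neurons and holds few dividing cells apart from glial precursors. A change that falls in the SVZ alone, a change that falls in the striatum alone and a change present in both are therefore different readings of the same ablation. IGFBPL1, a secreted IGF binding protein-like factor, is the molecule the study followed from one tissue to the other.

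The SVZ libraries held 8.361 to 9.595 M counts in ablated and 8.947 to 21.06 M in control mice, and the striatum libraries 2.627 to 3.371 M and 2.78 to 4.693 M. Summed CPM of 25 medium spiny neuron genes was 8720 to 24000 in the SVZ libraries, so the SVZ pieces, which the labels call neural precursor cells, held RNA of striatal neurons. The SVZ libraries of 3 control mice (I, J and N) were rich in Ttr, a choroid plexus transcript, and the striatum library of control mouse M stood apart, with a spiny neuron sum of 8720 CPM against 16900 CPM or more in the other mice. Among SVZ libraries, ablated mouse E had a spiny neuron sum of 8720 CPM against 19900 CPM or more in the other ablated mice, and a cortical excitatory neuron sum of 5140 CPM against 2740 CPM or less in all other mice. The SVZ spiny neuron sum of controls ran from 9570 CPM in mouse G through a median of 16200 CPM to 20300 CPM in mouse H. Ablated mice A to D were at 19900 to 24000 CPM. Whether this bears on the SVZ changes below was not tested. Genes varied more between mice in the SVZ than in the striatum: the median residual SD was 0.862 and 0.381 on the log2 scale, and it was larger in the SVZ for 94.5% of genes. Depth, kit and dissection differ along with tissue here, and their part in this spread was not tested.

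More genes fell than rose in the SVZ relative to the striatum. At the study's threshold, an unadjusted limma p no higher than 0.01 with a 2-fold or larger change, 249 genes (1.75% of those tested) fell in the SVZ relative to the striatum and 56 (0.394%) rose. The counts were nearer to each other against the 3 NestinTK-GCV+ mice alone, at 156 and 122, and with limma-voom, at 99 and 57, and without mouse E they were 262 and 44. Against the NestinTK-GCV+ mice alone 41 of the 249 and 25 of the 56 were called again. Among the 249, neuroblast genes (Igfbpl1, Prokr2, Dcx), genes of dividing cells (Top2a, Ube2c, Rrm2) and genes of motile cilia (Ccdc114, Rsph1, Ak7) were called in the lists drawn up for these cell types. The median relative fall of the 249 genes was 2.45 on the log2 scale, against a median of -0.0993 for all 14197 genes, and 184 of them had a striatal change of less than 0.5 in either direction. In bulk tissue, fewer cells of a type and less RNA per cell cannot be told apart.

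Over all 14197 genes, 1519 had an unadjusted p under 0.05 for the difference, 980 lower (6.9%) and 539 higher (3.8%), and 56.7% had a negative difference. The largest Benjamini-Hochberg limma adjusted p among the called genes was 0.322. A single gene, P2ry1, passed a limma adjusted p of 0.05, and it was lower (0.00704% of genes). That count was 2 with edgeR, 173 with DESeq2 and 6 without pairing, P2ry1 among them each time, and limma-voom gave 3 other genes. In the SVZ alone 226 genes fell (1.59%) and 38 rose (0.268%), with 4 lower genes past a limma adjusted p of 0.05 (0.0282%): Prokr2, Top2a, Igfbpl1 and Ccdc114. In the striatum alone 37 fell (0.261%) and 76 rose (0.535%), yet 25 lower (0.176%) and 23 higher genes (0.162%) passed the limma adjusted p. The spread between mice was smaller there, as given above.

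**Figure D1:**
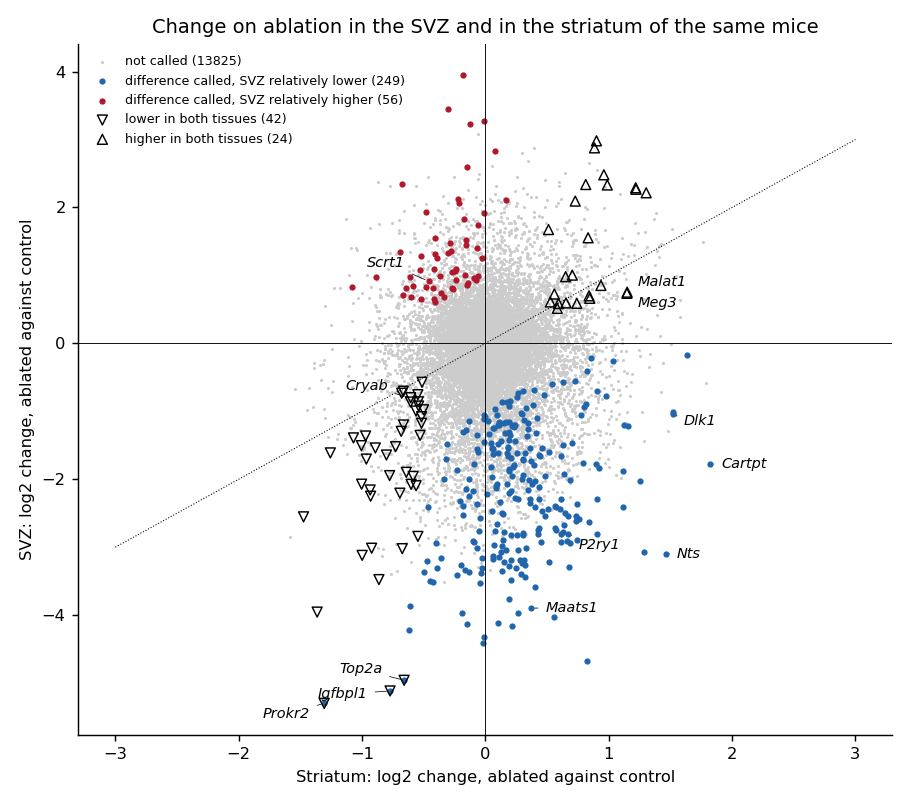
Each point is 1 of 14197 genes, with its log2 change on ablation in the striatum on the x axis and in the SVZ on the y axis (5 ablated against 10 control mice); colours mark genes called for the difference and genes changed in both tissues. The cloud is taller than wide, and the 249 genes lower in the SVZ relative to the striatum lie mostly below zero on the y axis and near zero on the x axis.

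Neuroblast genes fell in the SVZ relative to the striatum. Of 21 neuroblast genes tested, 9 fell in the SVZ relative to the striatum and 0 rose (limma; at an unadjusted p under 0.05 also 9 and 0, and with edgeR at the same threshold 8 and 0). Their median change was -0.594 in the SVZ and -0.036 in the striatum, giving a median difference of -0.676. The 9 were Igfbpl1, the migration receptor gene Prokr2 and 7 others, and the summed CPM of the list, which abundant neuronal genes such as Tubb3 and Stmn2 dominate, overlapped between groups in both tissues (2150 to 2490 in ablated and 1700 to 2890 in control SVZ).

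Igfbpl1 (chromosome 4, 45809468 to 45826923, minus strand, GRCm38) was close to absent from the ablated SVZ and present in the striatum of the same mice. In the SVZ of the ablated mice A, B, C, D and E it measured 0.107, 0, 0.124, 0.245 and 0 CPM, and controls ran from 0.661 through a median of 7.78 to 35.0 CPM. The groups did not overlap, and the lowest control was the NestinTK-GCV+ mouse H. In the striatum the same ablated mice measured 5.11, 2.82, 8.97, 3.70 and 9.80 CPM against 5.90, 9.59 and 15.5 CPM as the lowest, median and highest control, and the groups overlapped. The log2 change was -5.12 ± 0.90 (SE) in the SVZ and -0.77 ± 0.28 in the striatum, and the difference of -4.34 ± 0.90 had an unadjusted limma p of 4.45e-05 (limma adjusted p = 0.0762). With 2 or fewer counts in each ablated SVZ library the size of this fold depends on the prior count, and it was -5.49 with a prior count of 0.5 and -3.47 with 5. By the rule used below for shared changes Igfbpl1 was lower in both tissues, but not without mouse B. Its per-mouse difference of SVZ and striatum was -4.363, -4.325, -5.027, -3.362 and -5.943 in ablated mice and -4.16 to 2.00 in controls, and the overlap came from mouse H alone.

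Prokr2, which encodes a receptor for prokineticins that guide neuroblast migration, separated the groups in the SVZ completely. All 5 ablated SVZ libraries held 0 counts of it, and control libraries held 1.93 to 12.6 CPM with a median of 8.78. Against a floor of 3 counts per library this is at least 21.3-fold lower. In the striatum it was scarce in every mouse, at 1.99, 0.705, 0.332, 0.37 and 0 CPM in the ablated mice A, B, C, D and E, and 0.945 to 4.36 CPM in controls, with overlap and a log2 change of -1.31 ± 0.37 (limma, adjusted p = 0.133). At so few counts the size of a striatal fall is limited, so the tissue difference of Prokr2 cannot show how far the striatum was spared.

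Dcx, the doublecortin gene of migrating neuroblasts, also fell in the SVZ relative to the striatum, by less. Ablated SVZ libraries held 15.5, 25.3, 22.6, 16.5 and 26.1 CPM against 23.4, 42.6 and 108 CPM as the lowest, median and highest control, and the groups overlapped. The striatum showed 21.8 to 35.9 CPM in ablated and 18.4 to 30.6 CPM in control mice, with overlap. The difference for Dcx was -1.47 ± 0.38 (limma adjusted p = 0.164). Sox4 (-2.30) and Sox11 (-1.45), transcription factors of immature neurons, Dlx1 (-1.66), Dlx2 (-3.19) and Sp8 (-3.59), which specify olfactory interneurons, and Cd24a (-2.39), a neuroblast surface protein, were the other members called. The Sp8 call was lost without mouse A, C, D, E or O, and the Dlx2 call without C. Sp8 averaged 0.148 CPM in ablated and 0.655 CPM in control striatum, too low for a large fall there to be measured. Dlx5 (-0.88), Dlx6 (-0.68), Meis2 (-0.13) and Gad1 (0.26), which striatal neurons or interneurons also express, did not pass.

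As with the calls over all genes, the neuroblast call count depended on which controls were used. It was 2 of 19 genes tested against the 3 NestinTK-GCV+ mice alone. Against the 4 NestinTK+PBS+ mice it was 5 of 20, and against the 3 NestinTK-PBS+ mice 2 of 20. Fewer mice enter these fits against a single control group. For the interaction of genotype and treatment, which used all mice, the count was 2 of 21. The cause of these lower counts was not tested. Call counts against single control groups are not given here for the other lists, so the dividing-cell and ependymal counts below hold for all controls together. Against the NestinTK-GCV+ mice alone Igfbpl1 did not pass the expression filter, since mouse H was under 1 CPM and so were all ablated mice.

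Genes of dividing cells fell in the SVZ relative to the striatum, where their summed level overlapped between groups. Of 27 tested, 8 fell in the SVZ relative to the striatum and 0 rose (limma; 14 and 0 at an unadjusted p under 0.05, and 4 and 0 with edgeR), with a median change of -2.29 in the SVZ, -0.244 in the striatum and -2.23 for the difference. Their summed CPM in the SVZ was 56.9 to 108 in ablated and 135 to 317 in control mice, without overlap, and in the striatum 52.8 to 64.7 and 46.3 to 72.7, with overlap. The genes called were Top2a (-4.30), Ube2c (-3.99), Rrm2 (-3.58), Plk1 (-3.33), Ccna2 (-3.06), Pbk (-3.05), Mcm6 (-2.90) and Mcm5 (-2.66), which cover DNA synthesis, replication licensing and mitosis. The Plk1 call was lost without mouse A, C, D, L, M or O. In the striatum Ube2c averaged 1.18 CPM in each group, and Rrm2 0.943 CPM in ablated and 0.576 CPM in control mice. At such levels little striatal fall could have been measured, so the differences of Ube2c and Rrm2 rest on the SVZ change. Mki67 (-0.24), Pcna (-0.34) and Mcm2 (0.58) did not pass.

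Top2a, the topoisomerase that untangles replicated chromosomes, is located on chromosome 11 (98992943 to 99024189, minus strand, GRCm38). In the SVZ of the ablated mice it measured 0.855, 3.60, 0, 2.08 and 0 CPM, each below the lowest control of 3.91 CPM, and the control median was 30.8 and the highest 69.0 CPM. In the striatum it measured 1.66 to 5.39 CPM in ablated and 2.60 to 8.01 CPM in control mice, with overlap. Its log2 change was -4.96 ± 0.78 in the SVZ and -0.66 ± 0.30 in the striatum (difference, limma adjusted p = 0.0762). Rrm2, a subunit of ribonucleotide reductase, gave per-mouse differences of 2.089, 0.4618, -0.914, 0.32 and -3.285 in ablated mice and 2.12 or more in every control, so the groups just separated. Plk1, a mitotic kinase, was at -2.59 in the SVZ (limma, adjusted p = 0.403), where 3 ablated libraries held no count, and in the striatum it measured 4.65 to 9.16 CPM in ablated and 1.96 to 5.54 CPM in control mice (0.74 ± 0.26, limma adjusted p = 0.263).

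The promoters of the genes that fell together are shown here because the dividing-cell list shares letters that the choice of members did not use. Each sequence is the 250 bases before a RefSeq transcription start (GRCm38.p6), written 5′ to 3′ on the gene's strand, with matches in capitals. For Top2a (chr11:99024190-99024439, minus strand) and Ube2c (chr2:164769679-164769928, plus strand) the capitals mark CCAAT, the core of the box bound by NF-Y, on either strand (ATTGG), and TTTGAA, the cell cycle homology region, on either strand (TTCAAA). In Ube2c a CCAAT and an ATTGG overlap in CCAATTGG. For Ccdc153 (chr9:44240427-44240676, plus strand), a ciliary gene, the capitals mark GTTGCC, the half-site of RFX factors, which was searched also as GGCAAC.
Top2a: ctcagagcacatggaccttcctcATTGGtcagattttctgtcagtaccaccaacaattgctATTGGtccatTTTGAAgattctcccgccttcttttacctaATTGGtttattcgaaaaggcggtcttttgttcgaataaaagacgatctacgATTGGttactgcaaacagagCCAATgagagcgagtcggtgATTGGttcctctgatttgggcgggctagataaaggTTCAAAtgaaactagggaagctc
Ube2c: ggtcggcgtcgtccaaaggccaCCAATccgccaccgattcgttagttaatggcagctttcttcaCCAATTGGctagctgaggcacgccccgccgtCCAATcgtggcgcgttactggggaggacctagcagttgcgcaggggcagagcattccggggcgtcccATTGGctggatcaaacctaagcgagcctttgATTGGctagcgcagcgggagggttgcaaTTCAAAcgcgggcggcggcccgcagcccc
Ccdc153: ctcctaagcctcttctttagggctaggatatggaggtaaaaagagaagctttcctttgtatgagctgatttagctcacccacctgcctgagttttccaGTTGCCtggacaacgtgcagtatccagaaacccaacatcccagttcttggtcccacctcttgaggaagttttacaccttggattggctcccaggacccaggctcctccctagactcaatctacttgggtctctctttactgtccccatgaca
CCAAT was present in this window of 21 of the 24 dividing-cell genes with a promoter in the reference (87.5%), against 37.5% of 27025 genes, and TTTGAA in 9 of 24 (37.5%) against 18.3%. GTTGCC was present in 8 of 21 ependymal genes (38.1%) against 11.8%. Of the 6 called dividing-cell genes with a promoter, 6 held CCAAT and 2 TTTGAA, the 2 shown, and of the 4 called ependymal genes with one only Ccdc153 (25%) held GTTGCC. Of all 190 genes called lower with a promoter 46.3% held CCAAT. Among the 10582 tested genes with a promoter the shares were 40.3% for CCAAT, 12.2% for TTTGAA and 12.9% for GTTGCC. A match describes letters and is not a site.

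Ependymal genes also fell in the SVZ relative to the striatum. Of 25 tested, 6 fell in the SVZ relative to the striatum and 0 rose (limma; 11 and 0 at an unadjusted p under 0.05, and 3 and 0 with edgeR). A negative difference was found for 24 of 25, against 56.7% of all genes. The median change was -1.80 in the SVZ and 0.0451 in the striatum. The 6 were Ccdc114 (-4.39), a docking protein of outer dynein arms, Rsph1 (-3.37), a radial spoke protein, Ak7 (-3.31), a ciliary adenylate kinase, Ccdc153 (-2.22), Tm4sf1 (-2.45) and Rarres2 (-2.10), and Foxj1, the master regulator of motile cilia, was at -1.30 without passing. Summed CPM in the SVZ was 106 to 479 in ablated and 202 to 644 in control mice, so the groups overlapped. The NestinTK-GCV+ mice F, G and H were at 284, 268 and 202 CPM, and the PBS controls at 332 to 644 CPM. Ablated mice A and B were at 275 and 479 CPM, and C, D and E at 106 to 136 CPM. The part of ganciclovir in this result was not tested.

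Individual ablated mice differed in these ciliary genes. Ccdc114 measured 0.428, 0.6, 0, 0 and 3.49 CPM in the ablated SVZ libraries of mice A, B, C, D and E, all below the lowest control of 3.75 CPM. Its striatal level was low, with means of 1.91 CPM in ablated and 1.73 CPM in control mice. In the SVZ the other genes split by mouse. Rsph1 measured 31.2, 40.0, 0, 4.78 and 0 CPM against 9.02 to 69.5 CPM in controls, with mice A and B inside the control range and the other 3 below it. Ak7 measured 7.80, 28.3, 0, 0.123 and 0.279 CPM against 3.64 to 32.3 CPM, split in the same mice. The Rsph1 call was lost without mouse C or E, the Ak7 call without E and the Tm4sf1 call without D. Leaving out the Ttr-rich mice and M (chosen after the data were seen) took the ependymal count from 6 to 2 genes. Choroid plexus genes moved with this group: all 10 tested had negative differences, against 56.7% of all genes, with Otx2 called (-4.58). The control SVZ libraries held 0.000133% to 9.88% of their counts in Ttr against 0.000406% to 0.0187% in ablated ones. The median choroid plexus difference was -2.30 over all controls and -0.353 without the Ttr-rich mice. Its part in the ependymal result was not tested.

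Several of the most cleanly separated genes belonged to no list. Per-mouse differences of ablated and control mice did not overlap for 24 genes below (0.169% of those tested) and 19 above (0.134%), and 18 and 5 of them also passed the threshold. Maats1, a ciliary and flagellar gene on chromosome 16 (38297754 to 38342143, minus strand), held 0 to 2 counts in every ablated SVZ library and 0.379 to 27.9 CPM in controls, with a difference of -4.27 ± 0.91. Mapk15, an atypical MAP kinase linked to ciliogenesis, measured 0 to 1.18 CPM in ablated and 2.19 to 21.4 CPM in control SVZ (difference -4.0 ± 0.91). The control striatum averaged 1.22 CPM of Maats1 and 0.74 CPM of Mapk15, so little striatal fall could have been measured for either. Hyal2 (-3.15), Tsfm (-3.14), Tatdn1 (-2.83), Atpaf2 (-2.42), 2010111I01Rik (-2.36) and Usp40 (-2.29) were also among these 18, as were Prokr2 and Rrm2, and the Tatdn1 call was lost without mouse A. Maats1, Tsfm, Tatdn1, Usp40 and 2010111I01Rik share exonic bases with a gene on the opposite strand, which the unstranded SVZ counts cannot tell apart. So do other named genes, among them P2ry1, Mink1, Slco2b1, Ccdc114, Ube2c, Plk1, Qdpr, Meg3 and Malat1.

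**Figure D2:**
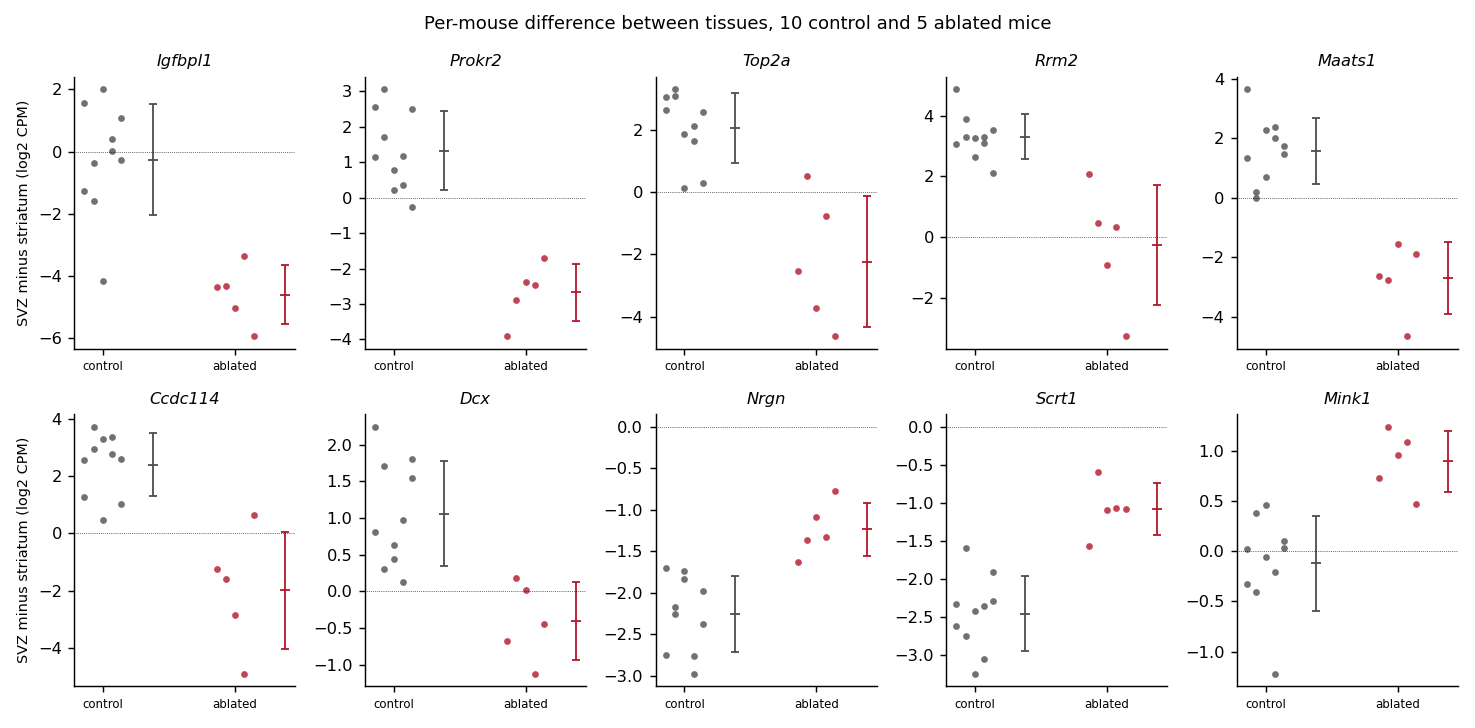
Each point is the SVZ minus striatum log2 CPM of 1 mouse for 10 genes, with 5 ablated and 10 control mice side by side, and the bar gives the mean ± SD. Ablated mice lie below the controls for Prokr2, Rrm2 and Maats1 and above them for Nrgn, Scrt1 and Mink1, and 1 NestinTK-GCV+ mouse lies near the ablated mice for Igfbpl1.

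The 56 genes that rose in the SVZ relative to the striatum showed smaller shifts, with a median of 1.55. Nrgn, a calmodulin-binding postsynaptic protein, measured 531, 609, 1040, 769 and 808 CPM in the ablated SVZ and 269.1 to 833.6 CPM in control SVZ, whereas striatal values were 1380 to 2210 in ablated and 895.5 to 3777 CPM in control mice. Both tissues overlapped between groups, but the per-mouse differences did not, and the difference for Nrgn was 1.02 ± 0.21 (limma adjusted p = 0.0762). Scrt1 (1.38), a neuronal transcription repressor, Mink1 (1.02), a kinase, and Slco2b1 (1.79), a transporter of organic anions, separated in the same way. The Slco2b1 call was lost in 12 of 20 alternative settings and without mouse A, B, C, D, E, G, J, M or O. For Scrt1 and Mink1 the log2 change was 0.92 and 0.68 in the SVZ and -0.46 and -0.34 in the striatum. Nrgn is one of the cortical excitatory neuron genes, whose sum was highest in the SVZ of mouse E, and the Nrgn difference was 0.91 without that mouse. The Nrgn difference dropped below 2-fold without mouse C, E, F, I or N, and the Mink1 difference without B, D, F, G or I. Mtm1 had the largest rise of all called genes (4.13) and Hfe the largest fall (-5.50); both overlapped between groups and were chosen after their values were seen.

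Neuronal lists held few calls. Of 25 medium spiny neuron genes only Pdyn was called (difference -1.22), of 17 striatal interneuron genes only Nos1 (1.05), of 11 cortical excitatory neuron genes Nrgn and Rorb (1.28), and of 20 circadian clock genes only Rorb, by limma at this threshold. Pdyn, the dynorphin precursor of direct-pathway neurons, measured 201 to 293 CPM in the ablated and 52.9 to 217 CPM in the control striatum, and 73.4 to 214 against 106 to 261 CPM in the SVZ. The Nos1 call was lost without mouse D, E or G, and the Rorb call without D. The log2 change of Pdyn was 0.82 ± 0.21 in the striatum and -0.40 ± 0.23 in the SVZ. Wfs1, an endoplasmic reticulum protein of these neurons, was at 1.02 in the striatum and 0.11 in the SVZ, which missed the 2-fold limit for the difference (-0.91).

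Not every difference between tissues came from the SVZ. Of the 249 lower genes, 197 had an unadjusted p of at most 0.05 in the SVZ alone, 16 in the striatum alone, 30 in both with opposite signs and 6 in both with the same sign (Aif1l, Prokr2, Igfbpl1, Mfsd12, Top2a and Tmed10). Of the 56 higher genes the counts were 36, 4 and 15 for the same classes, and 1 gene, Adck2, passed in neither tissue.

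Col6a1, a chain of collagen VI, rose in the striatum. The ablated striatum held 34.0, 31.4, 24.6, 38.8 and 37.4 CPM, and controls 6.38, 10.0 and 20.6 CPM as the lowest, median and highest. The groups did not overlap, and the log2 change was 1.63 ± 0.25 (limma adjusted p = 0.00582). In the SVZ, Col6a1 measured 25.7 to 63.5 CPM in ablated and 29.6 to 62.2 CPM in control mice, with overlap and a change of -0.17 ± 0.29, so the difference was -1.80 ± 0.40.

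Nts, the neurotensin precursor, measured 23.3, 11.6, 6.32, 24.8 and 21.4 CPM in the ablated striatum and 2.99 to 15.0 CPM in the control striatum, with a change of 1.46 ± 0.32 (limma adjusted p = 0.0494). In the SVZ of the same mice Nts measured 0.855, 0, 8.55, 1.59 and 0 CPM against 1.21 to 24.3 CPM, a change of -3.10 ± 0.95. Ablated and control ranges overlapped in both tissues. Cartpt, the precursor of the CART peptides, Dlk1, a Notch-related ligand, and Pabpn1, a poly(A)-binding protein, had an unadjusted p of at most 0.05 in the striatum and not in the SVZ. Cartpt was at 1.82 ± 0.50 in the striatum and -1.77 ± 1.14 in the SVZ, and Dlk1 at 1.52 ± 0.35 and -1.05 ± 0.97. Pabpn1 was at 1.52 ± 0.30 and -1.01 ± 0.56.

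Controls reached into the ablated range of these genes in the striatum. Mouse H (NestinTK-GCV+) held 15.0 CPM of Nts, 27.8 of Cartpt, 58.3 of Dlk1 and 65.8 of P2ry1 in its striatum, inside the ablated range for each, and the highest control value of P2ry1 was the 76.1 CPM of mouse N. Against the 3 NestinTK-GCV+ mice alone the Nts difference was -4.81 and passed the threshold, whereas those of Cartpt (-4.39, limma adjusted p = 0.335) and Dlk1 (-2.37, limma adjusted p = 0.537) did not. The Cartpt call was also lost without mouse D or E and by edgeR, and the Dlk1 call without mouse B or D.

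P2ry1, an ADP receptor of astrocytes and neurons (chromosome 3, 61002795 to 61008982, plus strand), was the gene whose tissue difference passed the adjusted p. It shares exonic bases with Gm37035 on the opposite strand, which the unstranded SVZ counts cannot tell apart. In the SVZ of the ablated mice P2ry1 measured 5.56, 0.6, 2.11, 0.245 and 2.93 CPM, all below the lowest control of 6.28 CPM, and the control median was 12.1 CPM. In the striatum the ablated mice held 51.9, 84.2, 63.5, 59.9 and 74.7 CPM and controls 24.6 to 76.1 CPM, with overlap. The changes were -2.81 ± 0.69 in the SVZ and 0.67 ± 0.23 in the striatum. The per-mouse differences were -3.196, -6.786, -4.815, -7.193 and -4.603 in ablated mice and -3.36 to -0.59 in controls, with overlap at mouse A and control mouse H. The difference of -3.48 ± 0.58 had a limma adjusted p of 0.0304, and it stayed between -3.66 and -3.22 over 20 alternative settings, in which the adjusted p ran from 7.41e-06 to 0.622. The limma adjusted p of P2ry1 was above 0.05 when any 1 of the mice B, D, G, J, K, L, N and O was left out, and at most 0.0805. A further 21 genes were lower in the SVZ and higher in the striatum, for 22 in all (0.155%), among them Odf3b, Plk1 and Mcm6, and 6 were higher in the SVZ and lower in the striatum (0.0423%), among them Cacng7, Tbc1d30, Atp8a2, Rorb and Gm23935. The SVZ rises of Rorb, Tbc1d30 and Atp8a2 were near the limit of 0.05, and leaving out 1 mouse at a time put them past it in 9, 8 and 7 of 15 cases; the call of the Atp8a2 difference was lost in 10 of 15. Gm23935, annotated as a miRNA gene (chromosome 16, 11144125 to 11144181), was counted at 7130 to 35500 CPM in the ablated SVZ and 948.7 to 9876 CPM in the control SVZ, and at 15.01 CPM or less in the striatum.

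**Figure D3:**
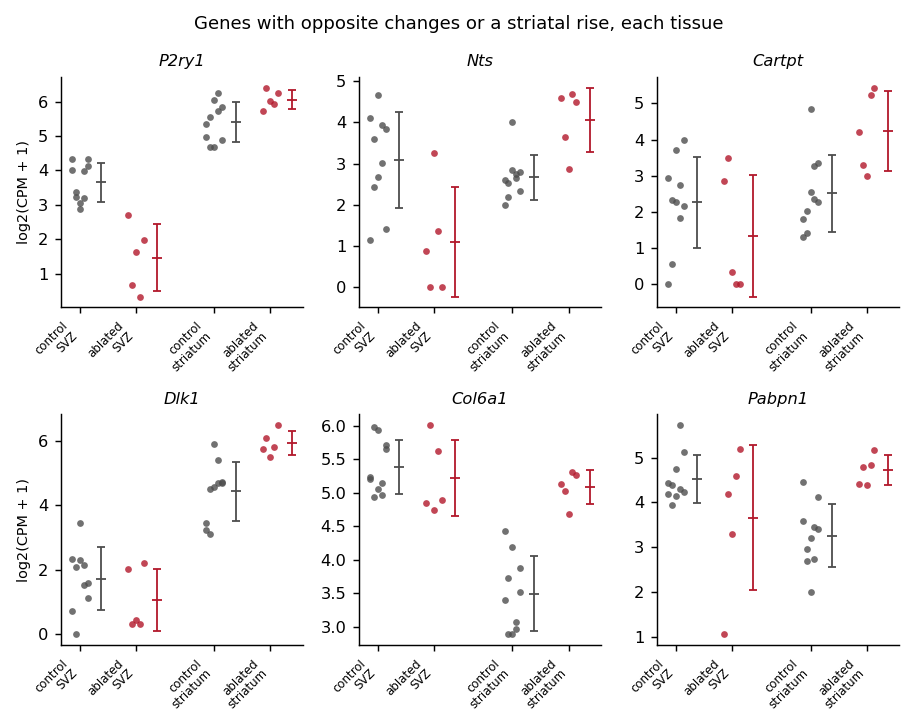
log2(CPM + 1) of P2ry1, Nts, Cartpt, Dlk1, Col6a1 and Pabpn1 in each mouse, with the SVZ and the striatum in separate columns and ablated (5) and control (10) mice apart; bars give mean ± SD. P2ry1 is lower than every control in the ablated SVZ, and Col6a1 is higher than every control in the ablated striatum.

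Shared changes were counted where both tissues had an unadjusted limma p of at most 0.05, the same direction and at least 0.5 on the log2 scale. By this rule 42 genes were lower in both tissues (0.296%) and 24 higher in both (0.169%).

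Meg3, an imprinted noncoding RNA (chromosome 12, 109541001 to 109571726, plus strand), separated the groups in the striatum, at 7260, 8440, 9390, 8440 and 8550 CPM in ablated mice against 2321 to 6577 CPM in controls. In the SVZ it measured 517, 548, 753, 2000 and 1200 CPM against 248.8 to 686.0 CPM, with mice D and E far above the rest. The log2 change was 1.15 ± 0.20 and 0.75 ± 0.25, and the tissue difference of -0.40 ± 0.30 had a limma adjusted p of 0.676. Malat1, an abundant nuclear RNA, measured 7100 to 9490 CPM in the ablated and 2272 to 8423 CPM in the control striatum (1.15 ± 0.22), and 537, 627, 720, 2290 and 1390 CPM in the ablated SVZ against 359.2 to 806.5 CPM (0.74 ± 0.25). Snhg11 was at 0.94 and 0.85 and Trank1 at 0.84 and 0.70 in striatum and SVZ. Without mouse D the SVZ changes of Malat1 and Meg3 fell to 0.42 and 0.46 and no longer met the rule, and the shared higher count dropped from 24 to 11.

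Qdpr, which recycles a cofactor of aromatic amino acid hydroxylases, was the lower shared gene whose larger p-value of the 2 tissues was the smallest. It measured 102, 122, 179, 97.5 and 71.6 CPM in the ablated SVZ and 159 to 296 CPM in controls, with overlap at mouse C. In the striatum the ablated mice held 190, 170, 191, 188 and 189 CPM, below every control (212 to 430 CPM). The log2 change of Qdpr was -0.86 ± 0.20 in the SVZ and -0.54 ± 0.15 in the striatum, where it did not meet the rule without mouse J or M. Cryab, a small heat shock protein of oligodendrocytes, was at -0.80 and -0.61, Plin3, a lipid droplet protein, at -1.64 and -0.80, and Aldh1a1, a retinal dehydrogenase, at -2.25 and -0.93. Cryab shares exonic bases with Hspb2 on the opposite strand. Over 19 alternative settings the striatal change of Qdpr missed the rule in 6 and turned its sign in 1, and that of Cryab in 4 and 1. Under the interaction of genotype and treatment these changes were 0.0369 and 0.054.

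**Figure D4:**
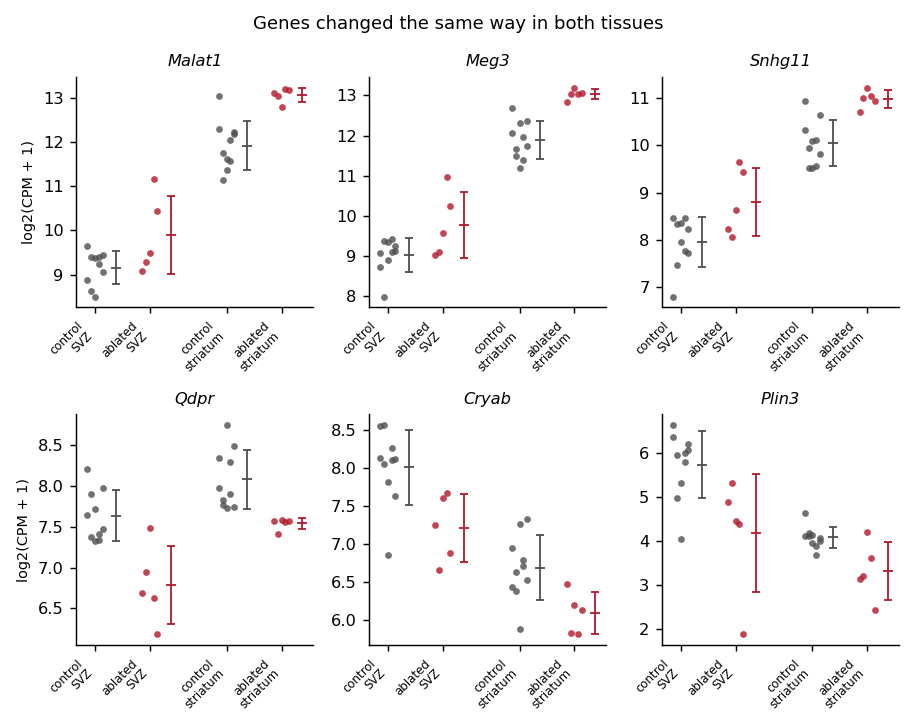
log2(CPM + 1) of Malat1, Meg3, Snhg11, Qdpr, Cryab and Plin3 in each mouse, by tissue and group; bars give mean ± SD (5 ablated, 10 control mice). The first 3 genes were higher and the last 3 lower in ablated mice in both tissues, and Meg3 and Qdpr do not overlap between groups in the striatum.

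Of 20 oligodendrocyte genes 0 were called for the difference by limma, edgeR or DESeq2, and 0 had an unadjusted limma p under 0.05 for it. Yet all 20 had a negative change in the striatum, against 48.4% of all genes. Of the 20, 14 were lower there at an unadjusted limma p under 0.05, against 5.57% of all genes. Mag (-0.92), Trf (-0.87), Ugt8a (-0.75), Mbp (-0.62) and Cnp (-0.47) were among the lower genes in the striatum, and their SVZ changes were -0.44, -0.54, 0.18, -0.21 and -0.23. Cnp, a myelin enzyme, measured 140 to 155 CPM in the ablated striatum and 156.4 to 296.3 CPM in controls, without overlap. The summed striatal CPM of the list was 2920 to 3620 in ablated and 3300 to 8040 in control mice, the highest being mouse M, and without that mouse 12 of the 20 genes stayed under 0.05. By control group the sums were 3300 to 4260 CPM in NestinTK-GCV+, 4660 to 6450 CPM in NestinTK-PBS+ and 4000 to 8040 CPM in NestinTK+PBS+ mice. The part of ganciclovir in the fall of this list was not tested.

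Of 16 astrocyte genes 0 were called for the difference by limma or edgeR and 4 had a higher difference at an unadjusted limma p under 0.05, and 7 were lower in the striatum at that level. Gfap, the astrocyte intermediate filament, was at -1.45 in the striatum and -0.99 in the SVZ. For 13 oligodendrocyte precursor genes, 17 microglia genes, 16 endothelial genes, 20 immediate early genes, 9 mitochondrial transcripts, 7 blood or neutrophil genes and 15 neuronal surface and synapse genes, limma and edgeR each called 0 differences. At an unadjusted limma p under 0.05 these 7 lists held, in that order, 0, 0, 0, 1, 0, 0 and 0 lower and 0, 2, 3, 0, 2, 1 and 3 higher differences. The mitochondrial ribosomal RNA mt-Rnr1 (0.89, limma adjusted p = 0.208) and mt-Rnr2 (0.74) were the higher ones of their list, while mitochondrial reads took 13.1% to 17% of SVZ counts in ablated and 6.69% to 15.2% in control mice.

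Of 16 stem or transit-amplifying cell genes only Vim was called (-1.43), of 13 meningeal or mural genes only Col1a2 (-3.04) and of 22 interferon genes only Psmb8 (-2.91), by limma at this threshold, and edgeR called 0 in each of the 3 lists. The Vim call was lost without mouse C, F or O, the Col1a2 call without C or D, and the Psmb8 call without B, D, E, F or H. Nes, whose regulatory sequence drives the transgene, measured 10.9, 0.48, 1.24, 13.6 and 0.418 CPM in the ablated SVZ against 4.70 to 15.4 CPM in controls, with mice A and D inside the control range. Its difference was -1.38 ± 0.96 (two-sided exact permutation p = 0.181).

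**Figure D5:**
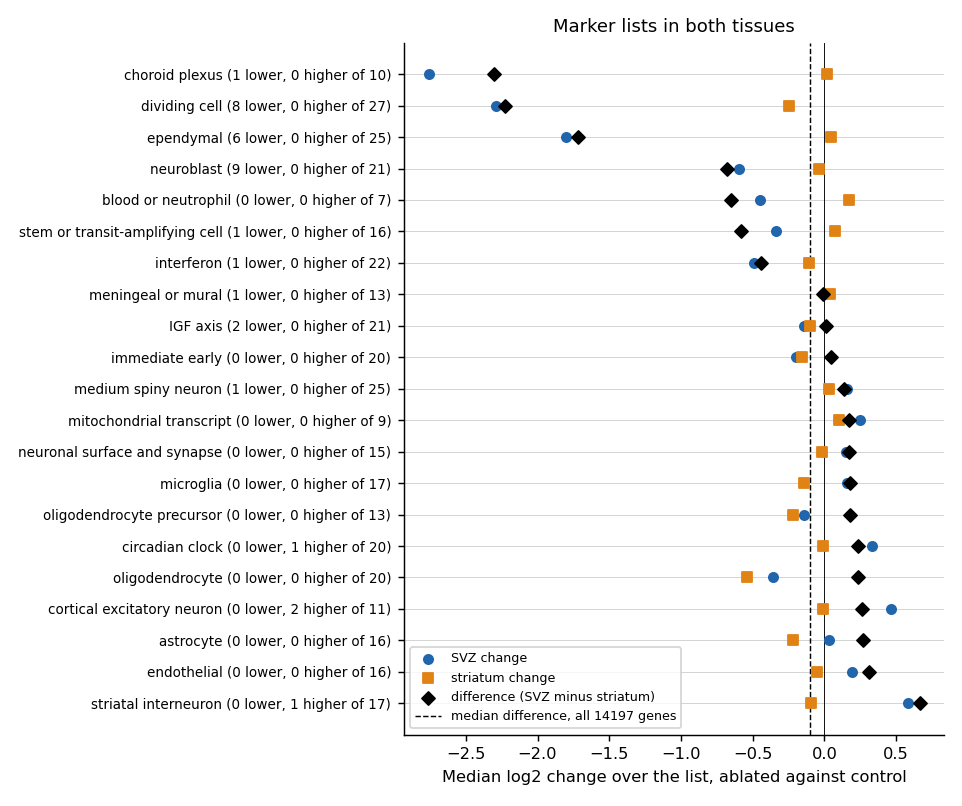
Median log2 change of each gene list in the SVZ, in the striatum and for their difference (ablated against control), with the dashed line at the median of all 14197 genes. The dividing cell, ependymal and choroid plexus lists have median differences of -2.23, -1.72 and -2.30, and the oligodendrocyte list lies at -0.542 in the striatum with a difference of 0.237.

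Of 21 tested, 2 fell in the SVZ relative to the striatum, Igfbpl1 and Igfbp3, and 0 rose (limma; 3 and 0 at an unadjusted p under 0.05, 1 and 0 with edgeR), with a median difference of 0.0105. Igfbp3, a carrier of circulating IGFs, was at -1.78 ± 0.96 in the SVZ and 0.90 ± 0.38 in the striatum (difference -2.68, limma adjusted p = 0.319), and its call was lost in 13 of 20 alternative settings and without mouse A, B, D, F, G, I, K or M. Igf1, the ligand, measured 5.56, 10.1, 17.3, 0 and 6.28 CPM in the ablated SVZ and 0 to 9.59 CPM in controls, and the striatal ranges were 2.11 to 3.40 and 1.75 to 5.87 CPM. Both overlapped, and the difference for Igf1 of 1.06 ± 1.11 had a two-sided exact permutation p of 0.395. Igf1r, its receptor, measured 65.7 to 125 CPM in the ablated SVZ and 66.4 to 81.8 CPM in the ablated striatum, inside the control ranges of 56.6 to 136 and 49.8 to 109 CPM, with a difference of -0.21 ± 0.26 (two-sided exact permutation p = 0.438).

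Genes that passed the expression filter in only a single tissue could not enter the paired comparison. The SVZ alone had 2178 genes that passed the expression filter, of which 28 fell (1.29%) and 20 rose (0.918%), and the striatum alone had 1222, of which 4 fell (0.327%) and 36 rose (2.95%). Among them 439 and 249 symbols, in that order, were absent from the table of the other tissue, and the rest were in it below the filter. Pimreg is a symbol that the striatum table lacks, so its striatal level is not known here. Pimreg, a mitotic regulator that was chosen after its values were seen, averaged 0.048 CPM in ablated and 4.06 CPM in control SVZ (log2 change -4.15, limma adjusted p = 0.0406), and the noncoding genes Gm26799 (1.70) and Gm5136 (1.61) rose in the striatum (limma adjusted p = 0.0486 for each). Among list genes kept in the SVZ only, Mia (-2.36) and Calml4 (-5.07) fell, and Gsx2, a transit-amplifying cell factor, averaged 0.0279 CPM in ablated and 2.15 CPM in control SVZ.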

How the data were processed

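RNA was sequenced from whole SVZ tissue (SMART-Seq v4 libraries, unstranded) and striatum (QuantSeq 3' libraries) of 15 mice. The authors deposited raw counts per gene symbol in 1 table per tissue, and the submitters' processing notes name Trimmomatic 0.36, STAR 2.5.3a, featureCounts and GRCm38. Mouse numbers in the labels tied each SVZ library to the striatum library of the same animal. Replicates are mice.

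Symbols with CPM above 1 in at least 3 libraries of each table were kept. Counts were scaled by TMM within each table (edgeR 4.0.16, R 4.3.3), taken to log2 CPM with a prior count of 2, and subtracted within each mouse. limma 3.58.1 compared ablated with control mice for each tissue and for the difference, with Benjamini-Hochberg adjustment over all genes. limma was used in place of a count model because the comparison is of paired log values, and edgeR and DESeq2 1.42.0 served as alternatives. Called means an unadjusted p no higher than 0.01 with a 2-fold or larger change, as in the study. The exact permutation tests used all 3003 splits and cannot give a two-sided p under 0.000666. Scripts were tested on simulated data. Residuals of the SVZ and striatum libraries of a mouse had a median correlation of 0.0253 (range -0.021 to 0.182), and the pairing rests on the animal. The SVZ library of a mouse correlated best with its own striatum library in 4 of 15 mice. The median residual SD was 0.952 for the difference and 0.862 in the SVZ alone, so the subtraction did not lower the median spread.

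The named genes were, of called genes without overlap, the 10 with the largest change in each direction, every gene with an adjusted p under 0.05, called genes with the 5 largest striatal changes each way, the 5 shared genes each way with the lowest larger p, 3 opposite genes of each kind, up to 4 called members of each list (otherwise up to 3 by level), and Igfbpl1, Igf1, Igf1r, Prokr2, Dcx and Nes. Further list members were chosen after their values were seen. Members, lists and rules were chosen with earlier results of these data known. Some genes that the rule would name are not reported here. Promoter sequences are from RefSeq.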

Additional observations from a re-analysis of the deposited data

Results flagged for a closer look

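P2ry1 was the gene whose response differed between tissues at a limma adjusted p under 0.05, with a difference of -3.48 (limma adjusted p = 0.0304). Single mice also stood far from the rest of their group in the SVZ minus striatum log2 CPM of 14 genes, out of 170 groups examined (8.24%), where chance gives about 1 in 20.

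In ablated mouse D, Hyal2 was at -4.66 against -0.81, Tm4sf1 was at -5.35 against 0.35, Igf1 was at -4.53 against 0.53 and Trank1 was at 1.19 against 0.52 in the nearest ablated mouse. In ablated mouse A, Tatdn1 was at -5.21 against -1.61 and Pabpn1 was at -4.08 against -1.19 in the nearest ablated mouse. In ablated mouse C, Vim was at -1.67 against 1.67 and Aldoc was at -0.81 against -0.34 in the nearest ablated mouse. In ablated mouse E, Cnp was at 0.58 against 1.34 in the nearest ablated mouse. In ablated mouse B, Sema7a was at 0.54 against -0.87 in the nearest ablated mouse.

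Among controls, Atp8a2 was at 4.16 in mouse K, Homer1 was at 1.27 in mouse M, Mink1 was at -1.22 in mouse I and mt-Cytb was at -0.84 in mouse G, against 2.66, 0.31 and -0.4 in the nearest control for the first 3.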

How the results depend on the processing

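Counts below are of genes lower and higher in the SVZ relative to the striatum (249 and 56), lower and higher in both tissues (42 and 24), and called in the SVZ (264) and the striatum (113). DESeq2 gave 475 lower and 95 higher, and edgeR 72 in the striatum. limma-voom gave 99 lower, 19 lower in both and 123 in the SVZ. Library totals in place of TMM gave 422 lower and 21 higher. In the striatum a prior count of 5 gave 37 and a minimum of 5 CPM gave 36. With NestinTK-GCV+ controls only the counts were 156 lower, 122 higher, 21 lower in both, 73 in the SVZ and 306 in the striatum. With NestinTK+PBS+ controls only they were 113 lower, 23 lower in both and 128 in the SVZ, and with NestinTK-PBS+ controls only 94 lower, 14 higher in both and 166 in the SVZ. The interaction of genotype and treatment gave 137 lower, 22 lower in both, 90 in the SVZ and 420 in the striatum. The 10 later-numbered mice (A to E, G, H, M, N and O) gave 132 lower and 117 in the SVZ, and leaving out the Ttr-rich mice 142 and 150. Of settings added after the data were seen, leaving out E and M gave 12 higher in both, and leaving out the Ttr-rich mice and M gave 122 lower and 128 in the SVZ. At an adjusted p under 0.05 the 6 counts were 1, 0, 0, 0, 4 and 48. The cause of these shifts was not tested.

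The share of lower calls was 81.6%, and it was 95.3% with library totals, 63.5% with limma-voom and 56.1%, 66.1% and 59.9% with each control group alone, in the order above, 66.2% for the interaction and 67.8% without the Ttr-rich mice and M. Without pairing (no replicate block) 248 genes were lower and 55 higher, of which 214 and 46 were also called with it. Other settings kept fewer of the 249 lower and 56 higher genes. These were 41 and 25 with NestinTK-GCV+ controls only, 73 and 24 with NestinTK+PBS+ controls only and 45 and 15 with NestinTK-PBS+ controls only. Under the interaction 22 and 6 were kept.

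Leaving out 1 mouse at a time gave 192 (without N) to 335 (without A) lower, 44 to 71 higher, 34 to 59 lower in both, 11 (without D) to 31 (without C) higher in both, 212 to 346 in the SVZ and 83 to 141 in the striatum. Under the interaction the sign turned for the Otx2 difference (0.786), for Cryab (0.054) and Qdpr (0.0369) in the striatum and for Tbc1d30 in the SVZ (-0.183), which was also at -0.0139 with NestinTK-GCV+ controls only. The small SVZ counts of ablated mice limit fold sizes, and 11 genes called lower had at most 3 counts in every ablated SVZ library.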
